A study of Mus musculus with 2 samples.

Results

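Tetraspanins are membrane proteins that cross the bilayer with 4 segments and gather integrins, proteases and immune receptors into membrane microdomains. Some of them, above all CD9, CD63 and CD81, are used as markers of extracellular vesicles, because cells concentrate them in the vesicles they release. In macrophages, tetraspanins of the plasma membrane take part in adhesion and migration, and CD9 and CD81 are known to restrain the fusion of macrophages into multinucleated cells. The genes described here are 10 of the 56791 genes in the deposited count table: Cd9, Cd63, Cd81, Cd82, Cd53, Cd37, Cd151, Tspan3, Tspan4 and Tspan14. They were taken from the table by gene name, and all 10 were found. The table also lists 21 further members of the family.

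The samples were cultures of RAW264.7, a leukaemic mouse cell line of monocyte and macrophage type, labelled wild type. In the first group the cells received 10000000 particles of a preparation named FAPD10-exos and 20 ng of recombinant IL-4 of the mouse over 24 h, and in the second they received vehicle with the same IL-4, as the treatment protocol is read here. IL-4 drives macrophages towards M2 polarization, also called alternative activation, so both groups carry it and neither shows the cells without it. Each group held 1 library, with 37196241 counts in the FAPD10-exos library and 36152743 in the vehicle library. No difference below has a replicate check, no test across samples can be made, and every comparison is between these 2 libraries. Ratios are FAPD10-exos over vehicle, and ranges in parentheses are 95% exact counting intervals, which cover counting error only. Levels are given in CPM, counts per 1000000 after scaling each library by its effective size.

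Macrophage identity was checked first. Of 12 macrophage marker genes 11 were measured, meaning a mean of at least 1 CPM over the libraries, and their counts summed to 1950 CPM in the FAPD10-exos and 2226 CPM in the vehicle library. Adgre1, the gene of F4/80, was 2.91-fold higher (2.28 to 3.75) and Spi1, the gene of the lineage factor PU.1, 1.60-fold higher (1.54 to 1.66), whereas Mpeg1 was 2.11-fold lower (2.01 to 2.21) and Ptprc, the gene of CD45, 1.55-fold lower (1.51 to 1.60). After the corrections for gene length described below, Ptprc stood at 0.27 in log2 by exon length, with its direction turned, and at -0.25 by transcript length, and Spi1 at 0.37 and 0.46, all short of 1.5-fold. Genes that mark other cells were mostly at or near 0. The 10 fibroblast and progenitor markers had 12 counts in the FAPD10-exos and 6 in the vehicle library, with 6 of them, Col1a1, Col1a2, Dcn, Lum, Ly6a and Thy1, at 0 in both. The 5 endothelial markers had 36 counts with FAPD10-exos and 32 with vehicle, and the 5 lymphocyte markers 4 with FAPD10-exos and 2 with vehicle. Of the adipocyte markers Adipoq and Cidec were at 0 in both libraries, while Lpl, which macrophages also express, stood at 315.9 CPM with FAPD10-exos and 298.5 CPM with vehicle, and of the muscle markers Myod1, Myf5 and Pax7 were at 0 in both and Myh3 had 116 counts with FAPD10-exos and 122 with vehicle.

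The promoters of 4 members are shown here because their genes stand at the top (Tspan3, Cd63) and the bottom (Cd53) of the ratios given below, with Cd37 added as the other member restricted to leukocytes. Each runs 5′ to 3′ from 250 bases before the gene's start to 30 bases after it, from RefSeq on build GRCm38.p6. Capitals mark matches, on either strand, to the letters searched: TTC and GAA with 4 bases between them (the spacing of STAT6 sites), GAGGAAGT (core of PU.1 sites), CACGTG (E-box) and GGGCGG (GC box).

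Tspan3, chr9:56161041-56161320, minus strand: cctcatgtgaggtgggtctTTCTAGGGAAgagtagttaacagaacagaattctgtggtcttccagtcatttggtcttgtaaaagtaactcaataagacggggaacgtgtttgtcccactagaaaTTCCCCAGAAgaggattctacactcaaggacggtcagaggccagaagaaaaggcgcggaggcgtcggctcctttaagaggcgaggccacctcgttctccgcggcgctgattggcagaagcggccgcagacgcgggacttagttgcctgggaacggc

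Cd63, chr10:128909095-128909374, plus strand: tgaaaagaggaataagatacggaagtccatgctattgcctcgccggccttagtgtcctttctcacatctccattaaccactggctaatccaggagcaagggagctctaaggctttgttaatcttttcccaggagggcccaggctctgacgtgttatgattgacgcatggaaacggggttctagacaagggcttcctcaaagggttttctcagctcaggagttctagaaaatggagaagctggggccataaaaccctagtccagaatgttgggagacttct

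Cd37, chr7:45238810-45239089, minus strand: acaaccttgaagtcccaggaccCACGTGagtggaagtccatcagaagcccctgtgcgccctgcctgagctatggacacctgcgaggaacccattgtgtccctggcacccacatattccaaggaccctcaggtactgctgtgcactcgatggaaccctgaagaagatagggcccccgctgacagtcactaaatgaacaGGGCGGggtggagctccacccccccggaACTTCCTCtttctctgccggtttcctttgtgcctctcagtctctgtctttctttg

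Cd53, chr3:106790120-106790399, minus strand: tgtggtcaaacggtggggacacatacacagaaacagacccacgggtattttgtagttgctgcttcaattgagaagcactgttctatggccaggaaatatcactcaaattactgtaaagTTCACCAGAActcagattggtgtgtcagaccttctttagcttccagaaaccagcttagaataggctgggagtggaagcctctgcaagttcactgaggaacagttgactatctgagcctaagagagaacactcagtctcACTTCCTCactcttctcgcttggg

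Tspan3 held 2 matches to the STAT6-type letters, 231 and 126 bases before the start, and Cd53 held 1, 132 bases before it. These are 2 of 16 member windows, and 6.50% of all 32851 windows of this size held such a match. The PU.1-type letters were found in Cd53, beginning 6 bases after the start, and in Cd37, 25 bases before it. They were also in 1 of 4 windows of Cd82 and 1 of 2 windows of Tspan14, which makes 4 of 16 member windows, against 2.82% of all windows. The Cd63 window had no match to any of the letters searched, which included CCGGAAGT (ETS-type, 3.72% of all windows) and TATAAA (13.1%). GC boxes were in 8 of 16 member windows, at least 1 each of Cd9, Cd81, Cd82, Cd37, Cd151, Tspan4 and Tspan14, and in 34.7% of all windows. E-boxes were in Cd37 and in 1 of 2 windows of Tspan4, so in 2 of 16 member windows, against 6.79% of all windows. Windows were found for all 10 members, 16 in all. A match describes these letters only and is no evidence that a factor binds there.

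All 10 tetraspanins were measured, and they differed little between the libraries. None of the 10 was at least 1.5-fold higher or lower with an interval that excluded 1. The same rule called 17.1% of the 12264 measured genes higher and 19.8% lower. The ratios ran from 0.853 for Cd53 to 1.40 for Tspan3, and the median log2 ratio of the members was -0.02, beside 0.01 for all measured genes. The log2 ratios of 54.3% of measured genes were no farther from 0 than that of Tspan3, the largest among the members. In bulk RNA, fewer cells with a transcript and less of it per cell cannot be told apart.

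**Figure D1:**
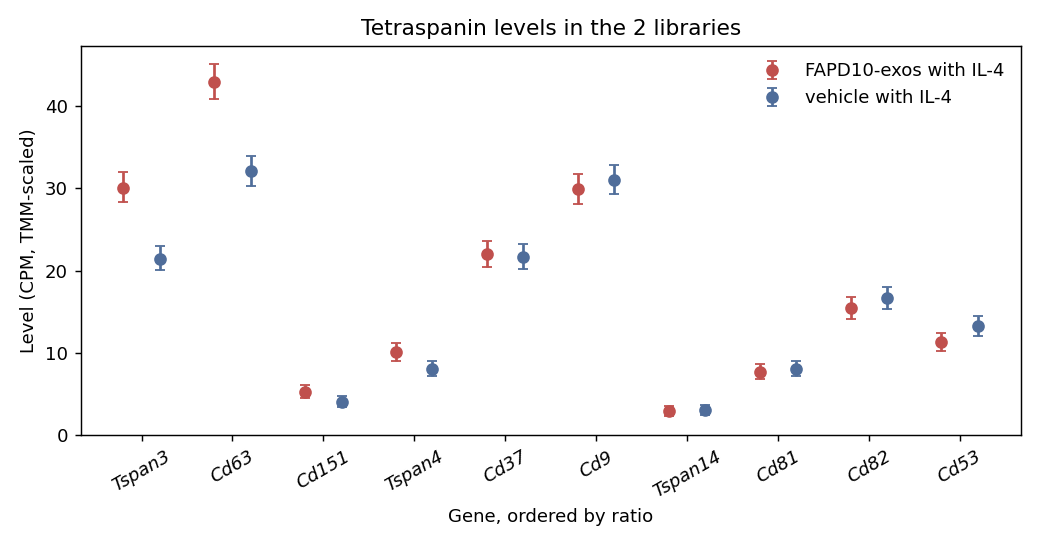
Level of each tetraspanin in CPM in the FAPD10-exos library (red, left of each pair) and the vehicle library (blue, right), with 95% exact Poisson intervals, genes ordered by ratio. Cd63 stands at 43.0 CPM with FAPD10-exos against 32.1 with vehicle and Tspan3 at 30.1 CPM with FAPD10-exos against 21.5 with vehicle, with intervals apart, as are those of Tspan4, while the intervals of the other members overlap.

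Of the vesicle markers Cd63 had a counting interval that excluded 1 under the scaling used here, while those of Cd9 and Cd81 included it. Cd63, which encodes a tetraspanin of late endosomes, lysosomes and exosomes, had 1529 counts in the FAPD10-exos and 1214 in the vehicle library, or 43.0 CPM with FAPD10-exos and 32.1 CPM with vehicle. Its ratio was 1.34 (1.24 to 1.44), which lies at percentile 74.2 of all measured genes. Cd9, whose product sits mainly at the plasma membrane, had 1063 counts in the FAPD10-exos and 1174 in the vehicle library, or 29.9 CPM with FAPD10-exos and 31.1 CPM with vehicle, with a ratio of 0.962 (0.884 to 1.05). Cd81, known from the B-cell coreceptor and from vesicles, had 274 counts (7.70 CPM) with FAPD10-exos and 305 counts (8.07 CPM) with vehicle, a ratio of 0.954 (0.808 to 1.13). On this scale the intervals of Cd9 and Cd81 reach no lower than 0.808, so a 1.5-fold difference lies outside them as far as counting error goes. Under scaling by total counts, which shifted the median of all measured genes by -0.13 in log2, Cd63 had a ratio of 1.22, Cd9 one of 0.880 and Cd81 one of 0.873. After the correction for exon length described below the intervals of Cd9 (0.685 to 0.810) and Cd81 (0.716 to 0.999) excluded 1, and by transcript length the Cd63 ratio was 0.941.

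Relations between members do not depend on how the libraries were scaled, since they can be read from counts within each library. There were 5.58 counts of Cd63 per count of Cd81 in the FAPD10-exos library and 3.98 in the vehicle library, which is 1.40-fold higher (1.17 to 1.69). Cd9 went the other way relative to Cd63, with 0.695 counts per Cd63 count in the FAPD10-exos and 0.967 in the vehicle library, 0.719 as a ratio (0.642 to 0.805). Per Cd81 count, Cd9 stood at 3.88 in the FAPD10-exos and 3.85 in the vehicle library (ratio 1.01, 0.836 to 1.22). Of the 45 pairs of members, 23 had an interval that excluded 1, or 14 with all counts halved. No share is given here for pairs of other measured genes, so these numbers of pairs have no background beside them. Each member enters several pairs, so the pairs are not independent of one another. Halving matters because 76.3% of genes with 1 to 50 counts in the FAPD10-exos and 75.1% in the vehicle library had an even count, a pattern that counting both ends of read pairs would give. The intervals as printed are then too narrow. With counts halved that of the Cd63 ratio was 1.20 to 1.49.

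Tspan3, a broadly expressed member of the family, had the highest ratio of the 10. It had 1070 counts in the FAPD10-exos and 811 in the vehicle library, or 30.1 CPM with FAPD10-exos and 21.5 CPM with vehicle, with a ratio of 1.40 (1.28 to 1.54; 1.23 to 1.60 with counts halved). It stood at percentile 78.2 of all measured genes. Tspan4, which is known for its part in migrasomes, the vesicles that form on the retraction fibres of migrating cells, had 358 counts (10.1 CPM) with FAPD10-exos and 303 counts (8.02 CPM) with vehicle. Its ratio was 1.25 (1.07 to 1.47), and with counts halved its interval began at 1.01. Cd151, a partner of laminin-binding integrins, had 186 counts (5.23 CPM) with FAPD10-exos and 152 counts (4.02 CPM) with vehicle, a ratio of 1.30 (1.04 to 1.62). Its interval with counts halved, 0.949 to 1.78, included 1. Thus 3 of 10 members, Cd63, Tspan3 and Tspan4, had halved-count intervals wholly above 1, where 32.5% of measured genes did.

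The tetraspanins restricted to leukocytes were level or slightly lower. Cd37 had 782 counts in the FAPD10-exos and 819 in the vehicle library, or 22.0 CPM with FAPD10-exos and 21.7 CPM with vehicle, with a ratio of 1.01 (0.918 to 1.12) that became 0.928 under scaling by total counts. Cd53 had 401 counts (11.3 CPM) with FAPD10-exos and 499 counts (13.2 CPM) with vehicle, a ratio of 0.853 (0.746 to 0.975). It was the lowest of the 10, and with counts halved its interval, 0.705 to 1.03, included 1. No member had a halved-count interval wholly below 1, whereas 32.2% of measured genes did. Summed, Cd37 and Cd53 stood at 33.2 CPM in the FAPD10-exos and 34.9 CPM in the vehicle library, with a ratio of 0.953 (0.881 to 1.03).

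Cd82 and Tspan14 also lay close to 1. Cd82, known as a suppressor of metastasis, had 549 counts in the FAPD10-exos and 628 in the vehicle library. This was 15.4 CPM with FAPD10-exos and 16.6 CPM with vehicle, with a ratio of 0.928 (0.826 to 1.04). Tspan14 belongs to the TspanC8 subgroup, which carries the shedding protease ADAM10 to the cell surface. It had the fewest counts of the 10, 102 in the FAPD10-exos and 113 in the vehicle library, or 2.87 CPM with FAPD10-exos and 2.99 CPM with vehicle. Its ratio of 0.959 had a wide interval (0.726 to 1.26, or 0.643 to 1.43 with counts halved), and the second of these takes in a 1.5-fold decrease.

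**Figure D2:**
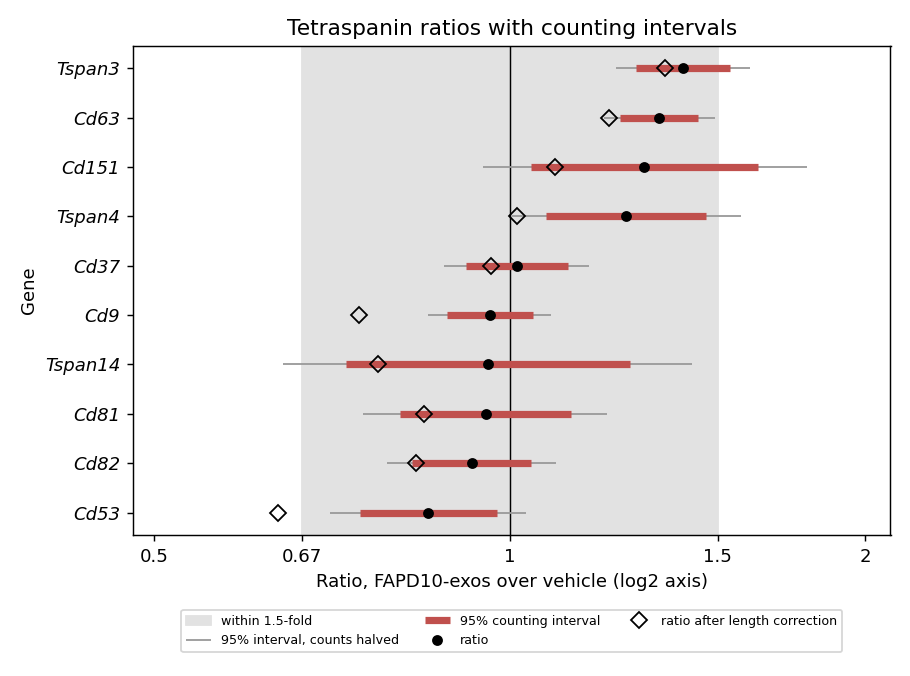
Ratio of FAPD10-exos over vehicle for each tetraspanin on a log2 axis (dots), with 95% counting intervals (red), the same with counts halved (grey lines) and the ratio after correction for exon length (diamonds); the grey band spans 1.5-fold in either direction. All dots lie inside the band, from 1.40 for Tspan3 to 0.853 for Cd53, and after the correction Cd53 at 0.637 lies outside it.

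Together the 10 genes had 6314 counts in the FAPD10-exos and 6018 in the vehicle library, or 177 CPM (173 to 182) with FAPD10-exos and 159 CPM (155 to 163) with vehicle. The ratio of the sums was 1.11 (1.08 to 1.15), and it was 1.02 (0.984 to 1.06) under scaling by total counts and 1.06 (1.02 to 1.10) without Cd63. With counts halved the intervals were 1.06 to 1.17 for all members and 0.999 to 1.12 without Cd63. The size of the difference in the total thus depended on the scaling, and so did its direction, which turned in TPM as given below. The make-up of the total did not depend on scaling. Cd63 took 24.2% of the members' counts in the FAPD10-exos (23.2 to 25.3, exact binomial interval) and 20.2% in the vehicle library (19.2 to 21.2). Tspan3 took 16.9% (16.0 to 17.9) with FAPD10-exos and 13.5% (12.6 to 14.4) with vehicle. Cd9 took 16.8% (15.9 to 17.8) with FAPD10-exos and 19.5% (18.5 to 20.5) with vehicle, and Cd53 6.35% (5.76 to 6.98) with FAPD10-exos and 8.29% (7.61 to 9.02) with vehicle.

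Levels of different genes can be set side by side only per length, and for this purpose counts were divided by exon length and scaled to sum to 1000000 in each library (TPM). These values order the genes within a library, and those of single genes are not compared between libraries. Summed, the members stood at 146 TPM in the FAPD10-exos and 171 TPM in the vehicle library, the opposite direction to the sums in CPM. Dividing by a fixed length leaves the ratio of each gene unchanged. This turn therefore goes with the rescaling of each library to 1000000, and no direction is read from it. Cd9 came first in both, at 35.1 TPM in the FAPD10-exos and 45.8 TPM in the vehicle library, followed by Cd63 at 28.0 TPM with FAPD10-exos and 26.3 TPM with vehicle. In the FAPD10-exos library Tspan3 (16.9 TPM), Cd53 (15.5) and Cd37 (14.97) came next with overlapping intervals between neighbours, then Cd82 (12.3), Tspan4 (9.28), Cd81 (6.42), Cd151 (4.57) and Tspan14 (2.60). In the vehicle library Cd53 held rank 3 at 22.9 TPM, with an interval overlapping that of Cd63, and Tspan3 held rank 6 at 15.1 TPM. Neighbours from Cd37 (18.6 TPM) through Cd82 (16.7 TPM) to Tspan3 overlapped there too. Tspan4 and Cd81, at 9.30 and 8.46 TPM, and Cd151 and Tspan14, at 4.43 and 3.40 TPM, likewise had overlapping intervals. The exon length in the table counts every annotated exon. With the length of the principal transcript in GENCODE M21 instead, Cd63 came first in both libraries and Cd9 second, and 3 of 10 genes in the FAPD10-exos and 5 of 10 in the vehicle library kept their rank. Cd81, Cd151 and Tspan14 held the last 3 ranks in both libraries by either length.

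**Figure D3:**
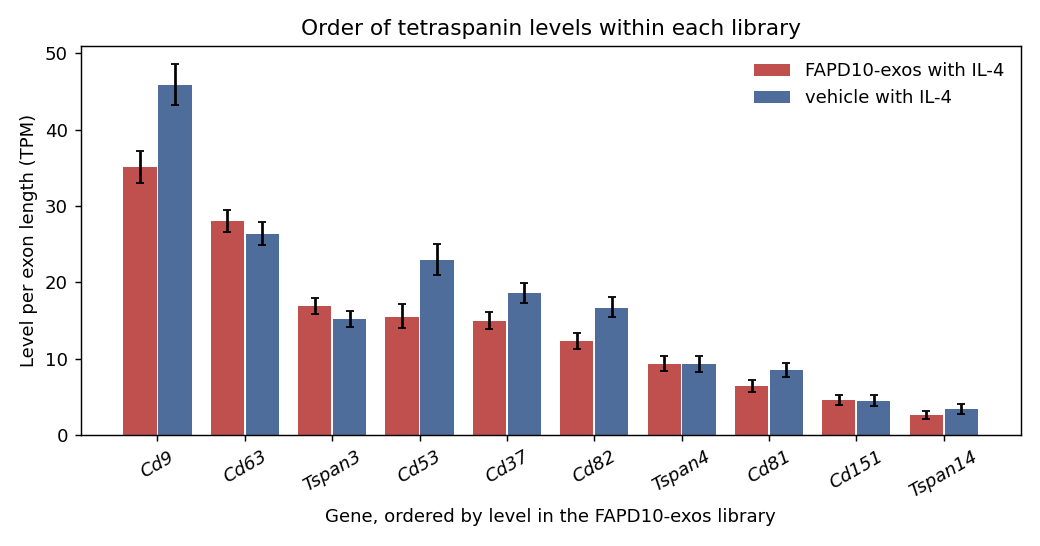
Level per exon length (TPM) of the tetraspanins within each library, FAPD10-exos in red on the left and vehicle in blue on the right of each pair, with 95% exact Poisson intervals. Cd9 leads both libraries, at 35.1 TPM with FAPD10-exos and 45.8 TPM with vehicle, and Tspan14 is last, at 2.60 TPM with FAPD10-exos and 3.40 TPM with vehicle; bars are to be compared within a colour.

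Ratios in these libraries went with gene length, and the tetraspanins have to be read against that. Over all 12264 measured genes Spearman's rho between exon length and log2 ratio was -0.45, as a description across genes that share the same libraries. The 4241 measured genes with exon lengths in the members' range, from 1742 to 4274 bases, had a median log2 ratio of 0.20, with quartiles of -0.18 and 0.52. A correction was made by subtracting the median log2 ratio of genes of like length, in 50 bins. After it the members' median was -0.15, and Cd53 stood 1.57-fold lower (1.37 to 1.79). It was then the single member past 1.5-fold, while 12.3% of measured genes were called higher and 16.2% lower on this scale. Cd9 stood at -0.42 in log2, Tspan14 at -0.37, Cd82 at -0.26, Cd81 at -0.24 and Cd37 at -0.05. Tspan3 remained above genes of its length at 0.44 and Cd63 at 0.28, Cd151 stood at 0.13 and Tspan4 at 0.02.

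Exon length in the table is far above transcript length for some members. For Cd63 it is 3682 bases against 1109 for the principal transcript, for Cd37 3522 against 1227 and for Tspan3 4274 against 1716, while for Cd53 both are 1742. A correction by principal transcript length, added after the data were seen, used 9911 measured genes, over which rho was -0.60. It called 10.2% of these higher and 12.0% lower. Cd53 was again the single member past 1.5-fold, at 1.52-fold lower. The value of Cd63 changed sign, to -0.09 in log2, and that of Tspan4 was -0.08, whereas Tspan3 at 0.11 and Cd151 at 0.10 stayed just above 0. Cd9 stood at -0.57, Cd37 at -0.49, Cd81 at -0.41, Cd82 at -0.37 and Tspan14 at -0.17. Set against genes with equally short transcripts, the Cd63 ratio thus lay just below the median, while the Cd53 ratio was the lowest of the 10 by either length.

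**Figure D4:**
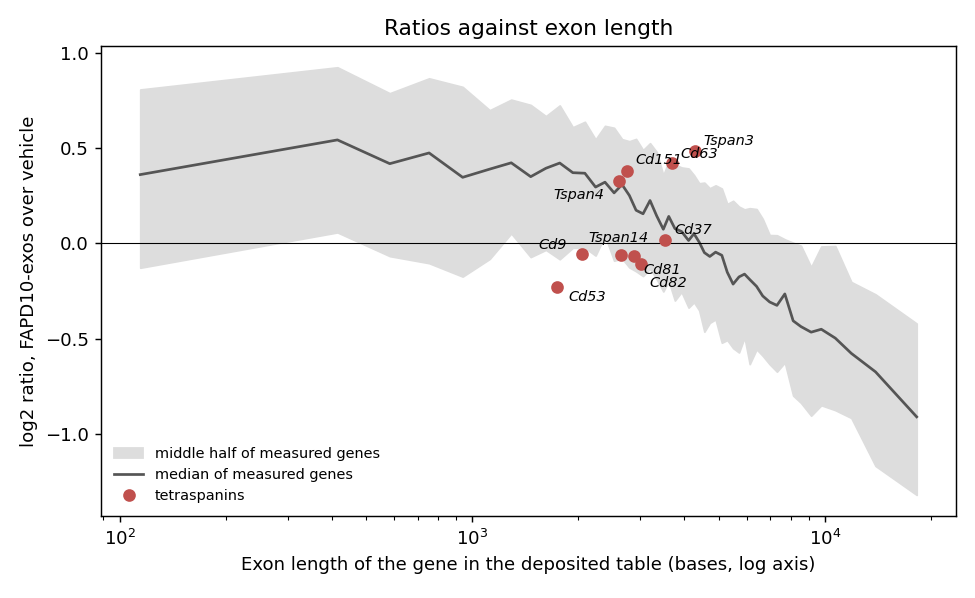
Log2 ratio of FAPD10-exos over vehicle against exon length in the deposited table (log axis), with the median and quartiles of measured genes in 50 bins (grey) and the tetraspanins (red). The median falls with length, Cd53 at -0.23 and Cd9 at -0.06 lie below the grey band, and Tspan3 lies above it at 0.49.

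Of the 21 further tetraspanin genes in the table, 12 had 0 counts in both libraries and 3 were measured. Tspan5, like Tspan14 a TspanC8 member, had 56 counts in the FAPD10-exos and 104 in the vehicle library and was 1.75-fold lower (1.25 to 2.47). Its exons span 7389 bases, and after correction for exon length it stood at -0.48 in log2, under 1.5-fold. Tspan31 had 270 counts with FAPD10-exos and 223 with vehicle, a ratio of 1.29 (1.07 to 1.54), but 29.2% of its exon bases also belong to Cdk4, so its value is uncertain. Tspan13 had 42 counts with FAPD10-exos and 56 with vehicle, a ratio of 0.797 (0.521 to 1.21). The TspanC8 genes Tspan10, Tspan15 and Tspan33 were at 0 in both libraries and Tspan17 had 2 counts in each, so Tspan14 and Tspan5 carried nearly all the counts of this subgroup. Tspan13 and these genes with 0 or 2 counts were named after their values were seen.

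Among partners of tetraspanins 1 of 18 measured genes was higher and 7 were lower, by the rule that called 17.1% of all measured genes higher and 19.8% lower. ADAM10, the protease that Tspan14 escorts, belongs here, and was named after its value was seen: Adam10 had 2451 counts in the FAPD10-exos and 4401 in the vehicle library and was 1.69-fold lower (1.61 to 1.78). The related sheddase gene Adam17 was 2.34-fold lower (2.23 to 2.46), at 64.6 CPM with FAPD10-exos against 151 with vehicle. Itga4, the integrin alpha-4 chain, was 3.36-fold lower (3.30 to 3.42), at 387 CPM with FAPD10-exos against 1299 with vehicle. The 1 higher partner was the integrin gene Itgb7, with 102 counts with FAPD10-exos and 62 with vehicle, named after its value was seen. Its ratio was 1.75 (1.26 to 2.44), and it stood at 0.55 in log2 by exon length, short of 1.5-fold, and 0.76 by transcript length. Itga6, the alpha-6 chain that pairs with CD151, was 4.02-fold lower (2.68 to 6.20) from 30 counts with FAPD10-exos against 128 with vehicle, and Hbegf, the gene of a growth factor precursor that binds CD9, 2.28-fold lower (1.504 to 3.54) from 33 counts with FAPD10-exos against 80 with vehicle. After correction for exon length Adam10 stood at -0.71 in log2, Adam17 at -0.90, Itga4 at -1.07, Itga6 at -1.54 and Hbegf at -1.14. By transcript length Adam10 stood at -0.40, under 1.5-fold. On that scale 4 of 17 partners were called lower and 2 higher, beside 12.0% lower and 10.2% higher of 9911 measured genes. Igsf8, the gene of an immunoglobulin protein that binds CD9 and CD81, had a ratio of 1.24 (1.16 to 1.33) and was also named after its value was seen. The list's median log2 ratio was -0.13.

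Of 30 measured genes of vesicle formation and cargo 5 were higher and 2 lower, beside 17.1% and 19.8% of all measured genes, with a median log2 ratio of -0.08. Under scaling by total counts, which shifted the median of all measured genes by -0.13 in log2, 3 were higher and 5 lower. The shares of all measured genes called under that scaling are not given here. Tsg101 of the ESCRT-I complex was 1.83-fold higher (1.67 to 2.01), at 35.1 CPM with FAPD10-exos against 19.2 with vehicle, and Chmp2a of ESCRT-III 1.92-fold higher (1.85 to 1.99), at 238 CPM with FAPD10-exos against 124 with vehicle. Hspa8, a chaperone found in exosomes, was 1.69-fold higher (1.68 to 1.71), and Rab31, a small GTPase of endosomes, 1.68-fold lower (1.62 to 1.75). Sdcbp, the gene of syntenin, the adaptor that links CD63 to exosome formation, was 1.62-fold lower (1.54 to 1.71) and was named after its value was seen. Chmp2a fell short of 1.5-fold after both length corrections, at 0.55 in log2 by exon length and 0.27 by transcript length. Sdcbp stood at -0.39 by exon length, short of 1.5-fold, and at -0.91 by transcript length. After correction for exon length 3 genes of the list were higher and 3 lower, beside 12.3% and 16.2% of all measured genes on that scale.

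The positions of the members are those of the deposited table, which names no build. On chromosome 7 lie 4 of the 10, namely Cd37 from 44883056 to 44888539 on the minus strand, and Cd151 (141047305 to 141051386), Tspan4 (141055153 to 141073340) and Cd81 (142606476 to 142621671) on the plus strand. Cd151 and Tspan4 are 3767 bases apart, and both had ratios near 1.3. Between them lies Polr2l, an RNA polymerase subunit gene, at 2.49 (2.13 to 2.91), above the intervals of both. Gm10575, which shares exon bases with Cd151, stood at 0.893 (0.672 to 1.18), which overlaps the intervals of both. Other measured genes within 50000 bases ran from 0.894 for Slc25a22 to 2.33 for Rplp2. These ratios of neighbours were not corrected for gene length. Cd63 lies on chromosome 10 from 128736858 to 128748691, Cd9 on chromosome 6 from 125437229 to 125471754, Cd53 on chromosome 3 from 106667237 to 106697465 and Tspan3 on chromosome 9 from 56039009 to 56072761. Cd82 lies on chromosome 2 from 93249456 to 93293485 and Tspan14 on chromosome 14 from 40628402 to 40688764. All values are counts over exons.

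Exons of Cd63, Cd82, Cd53, Tspan3 and Tspan14 shared no base with another gene of the table. Shared bases made up 11.2% of the exon length of Tspan4, with Chid1, 10.7% of that of Cd9, with Gm26728, 7.04% of that of Cd151, with Gm10575, 3.61% of that of Cd81, with R74862, and 0.369% of that of Cd37, with Tead2. The sources used here do not give the strand setting of the counting, so reads of these stretches may belong to either gene. The pseudogene Cd63-ps had 20 counts in the FAPD10-exos and 24 in the vehicle library, few beside those of Cd63, and Cd9-ps had 0 in both. How reads with several matches were treated is not given, so some reads of Cd63 and Cd9 may be missing.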

How the data were processed

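RNA-seq read counts were analysed for 2 libraries, 1 per group. The authors deposited whole-number counts per gene over exons, not normalised, in the layout of featureCounts per the file headers. The submitters' processing notes name fastp 0.23.4, STAR 2.5.3a, featureCounts and the human build GRCh38, which cannot be that of mouse symbols; the sources used here give no annotation release, strand setting or handling of multiple matches. Columns were matched by description.

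Counts were scaled by TMM (edgeR 4.0.16, R 4.3.3; factors 0.957 for FAPD10-exos and 1.05 for vehicle). A value of 1 CPM equals 35.6 counts with FAPD10-exos and 37.8 with vehicle, and a count of 0 allows up to 3 counts, 0.0843 CPM with FAPD10-exos and 0.0794 with vehicle. With 1 library per group edgeR's test could not be fitted, so no p-value was computed. Ratios carry 95% Clopper-Pearson intervals. A gene was called at 1.5-fold with an interval excluding 1. Alternatives included DESeq2 1.42.0 median of ratios. The procedure was also run on simulated Poisson counts with known folds. These had no length trend and no doubled counts, so that run does not cover these features of the data. The promoter windows and transcript lengths come from RefSeq and GENCODE M21 on GRCm38, matched by symbol, and no coordinate was converted.

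The text names all members, up to 4 genes per list with the largest log2 ratio among those with at least 100 counts, and further tetraspanins with at least 100. Genes named outside this rule were chosen after their values were seen. The members and the lists (further tetraspanins, partners, vesicle genes, palmitoyl transferases, macrophage fusion, cell type markers) were chosen with earlier results of these data known. The promoter letters were also chosen after values were seen. Tspan19, which is in the family list, was not analysed here. Proteins were not used. Figures were drawn with matplotlib 3.10.9 in Python 3.11.15.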

Additional observations from a re-analysis of the deposited data

How the results depend on the processing

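No member was called higher or lower under any scaling (total counts, median of ratios, upper quartile), with counts halved, with 1 CPM added, at 2-fold, with whole intervals beyond 1.5-fold, with no filter or with a filter at 10 CPM, which left 6 members. Of these settings only the scalings could have added a call. The others leave the ratios, none of which reached 1.5-fold, unchanged or nearer to 1, or set a stricter rule. Both length corrections called 1 member lower, Cd53. The median over all measured genes shifted by -0.13 in log2 under total counts, -0.04 under median of ratios and 0.07 under upper quartile. The members' median ranged from -0.27 (transcript length) to 0.05 (upper quartile). Single ratios left their counting interval for 2 of 10 members under total counts, 4 by exon length and 8 by transcript length. They did so for 0 under median of ratios, upper quartile and 1 CPM added. Halving the counts cannot move a ratio. The ratio of the summed members was 1.06 without Cd63 and 1.02 under total counts. In TPM, which also rescales each library, the sum was 146 with FAPD10-exos and 171 with vehicle, so its direction turned with that rescaling. Per transcript length 3 members in the FAPD10-exos and 5 in the vehicle library kept their rank.

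In the lists, further tetraspanins had 0 genes lower under both length corrections, 1 CPM added, 2-fold and whole intervals. Partners had 2 genes higher under upper quartile and transcript length, 0 under the other settings that moved it, and 4 lower at 2-fold and by transcript length. Vesicle genes had 3 higher and 5 lower under total counts, 3 higher by exon length, 2 higher by transcript length, and 0 either way at 2-fold. Palmitoyl transferases had 1 higher under total counts, median of ratios, 1 CPM added and transcript length, and 0 at 2-fold and with whole intervals. They had 3 lower under total counts and 0 under upper quartile, exon length, 1 CPM added, 2-fold and whole intervals. Fusion genes had 1 higher under total counts, median of ratios, 1 CPM added, 2-fold and whole intervals, 2 lower under total counts and median of ratios, and 0 lower under the other settings that moved it. The cause was not tested. Apart from the length corrections, no share of all measured genes called is given for these settings. The moves of the list counts therefore have no background beside them. Depth limits Tspan14, Cd151 and Cd81 most. No paired analysis was possible because each group held 1 library.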

Other observations

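Tetraspanins carry palmitate, which the ZDHHC family of palmitoyl transferases attaches. Of 18 measured Zdhhc genes 2 were higher and 1 lower, beside 17.1% and 19.8% of all measured genes, and the median was 0.02 in log2. Under total counts, for which no share of all measured genes is given here, 1 was higher and 3 were lower. Zdhhc4 was 1.73-fold higher (1.41 to 2.13) from 253 counts in the FAPD10-exos and 155 in the vehicle library, and Zdhhc12 1.53-fold higher (1.24 to 1.88) from 229 counts with FAPD10-exos and 159 with vehicle. Zdhhc17 was 1.57-fold lower (1.28 to 1.92) from 160 counts with FAPD10-exos and 266 with vehicle, and Zdhhc20 1.45-fold lower (1.32 to 1.60), short of the threshold. After correction for gene length Zdhhc12 stood at 0.19 in log2 by exon length and 0.11 by transcript length. Zdhhc17 stood at -0.34 and -0.37, and Zdhhc4 at 0.62 and 0.37. By transcript length these named genes were thus short of 1.5-fold. Over the 18 Zdhhc genes 1 was then higher and 1 lower, beside 10.2% and 12.0% of measured genes on that scale. Zdhhc2, whose product palmitoylates CD9 and CD151, had 255 counts in each library, and was named after its values were seen.

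Genes of macrophage fusion, the process that CD9 and CD81 restrain, had 2 of 10 measured members higher and 1 lower, beside the same 17.1% and 19.8%. Under total counts and under median of ratios, for which no share of all measured genes is given here, 1 was higher and 2 were lower. Cd47, whose product is the ligand of SIRP alpha, was 1.52-fold higher (1.34 to 1.71), and Sirpa had a ratio of 1.39 (1.33 to 1.45). The second higher gene was Atp6v0d2, a proton pump subunit of fused macrophages, with 66 counts in the FAPD10-exos and 22 in the vehicle library. Its ratio was 3.19 (1.94 to 5.42). Nfatc1, a transcription factor of osteoclast formation, was 1.503-fold lower (1.30 to 1.74), and Dnmt3a, a DNA methyltransferase, 1.47-fold lower (1.42 to 1.52). After correction for gene length Dnmt3a turned to 0.36 in log2 by exon length and 0.30 by transcript length. Nfatc1 stood at -0.26 and -0.31, short of 1.5-fold, and Cd47 at 0.83 by exon length but 0.09 by transcript length. Sirpa stood at 0.52 by exon length, short of 1.5-fold, and at 0.69 by transcript length, and Atp6v0d2 at 1.36 and 1.56. Each correction left 2 genes of the list higher and 0 lower. By exon length 12.3% of measured genes were called higher and 16.2% lower, and by transcript length 10.2% and 12.0%. The fusion receptor genes differed in abundance, with 137 counts of Dcstamp with FAPD10-exos and 162 with vehicle, and 2 of Ocstamp with FAPD10-exos and 0 with vehicle. Atp6v0d2, Dcstamp and Ocstamp were named after their values were seen.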
